A study of Homo sapiens with 12 samples.

Results

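The feedback effectors of the amino acid stress response described here are SESN2, DDIT4, CHAC1, PPP1R15A, GADD45A and STC2. The set was given by a list of 7 genes and their transcript identifiers. Its rule used no measured value, but the list was chosen with earlier results of these data known. Each of the 6 named genes has 1 of its listed identifiers in the tables. Whether other transcripts of these genes are counted there is not known here. The set is thus 6 of the 19849 transcripts listed in the footprint table. TRIB3, the other gene of the list, was not analysed here. The identifiers are ENST00000253063 for SESN2, ENST00000307365 for DDIT4, ENST00000617768 for CHAC1, ENST00000200453 for PPP1R15A, ENST00000370986 for GADD45A and ENST00000265087 for STC2. Cells of the human colon cancer line RKO, labelled as wild type in genotype, were kept for 24 hours in 12.5 uM arginine (starved) or in 400 uM arginine (fed). Both groups were plated in full medium and then moved to arginine-free DMEM with dialyzed serum to which arginine was added back at these levels. RNA-seq, which measures transcript levels, and ribosome profiling, which sequences the mRNA fragments that ribosomes protect (footprints), were run on 3 libraries per group, 12 libraries in all. All libraries come from this line. The labels leave unsaid whether replicates were grown separately. A p-value here weighs the difference between groups only against how far replicate libraries differ, for whatever reason. The comparison asks what low arginine does to the RNA of a gene, to the ribosomes on it, and to the ratio of the 2 measures.

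When an amino acid runs short, uncharged tRNA activates the kinase GCN2, which phosphorylates the initiation factor eIF2alpha. General translation then falls while the transcription factor ATF4 is made, and ATF4 with its C/EBP and CHOP partners switches on a set of target genes that is known across human cell types. Several of these targets act back on the response: some restrain mTORC1, the kinase complex that drives growth when nutrients are present, and others remove the phosphate from eIF2alpha so that translation can resume.

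The promoter windows are shown because ATF4 acts through short DNA elements. Most members with a window rose in RNA, and whether ATF4 was behind this was not tested. Windows of 300 bases, 250 before and 50 after the annotated start, were found for 5 of the 6 genes in RefSeq (GRCh38.p14); GADD45A had none in the table. They were searched on both strands for TGATGNAA, the composite element bound by ATF factors with C/EBP partners, for TGACGTCA, the cyclic AMP response element, and for CCAAT, the CCAAT box, a motif added after the sequences had been read. The 4 windows of genes whose RNA rose are printed 5′ to 3′ on the strand of the gene, with every match to these motifs in capitals. The matches did not overlap each other.

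CHAC1, chr15:40953221-40953520, plus strand: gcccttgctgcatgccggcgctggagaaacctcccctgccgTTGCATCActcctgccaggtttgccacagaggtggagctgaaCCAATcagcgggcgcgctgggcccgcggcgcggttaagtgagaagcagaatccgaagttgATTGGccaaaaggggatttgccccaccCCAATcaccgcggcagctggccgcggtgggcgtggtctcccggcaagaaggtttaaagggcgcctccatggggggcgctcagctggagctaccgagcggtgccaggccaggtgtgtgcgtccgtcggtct
PPP1R15A, chr19:48872171-48872470, plus strand: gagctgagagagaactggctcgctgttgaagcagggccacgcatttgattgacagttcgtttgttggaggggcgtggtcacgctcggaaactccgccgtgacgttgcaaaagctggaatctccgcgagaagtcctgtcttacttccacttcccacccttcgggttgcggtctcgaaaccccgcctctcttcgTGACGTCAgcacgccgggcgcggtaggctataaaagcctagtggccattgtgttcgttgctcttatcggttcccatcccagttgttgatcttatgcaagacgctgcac
SESN2, chr1:28259268-28259567, plus strand: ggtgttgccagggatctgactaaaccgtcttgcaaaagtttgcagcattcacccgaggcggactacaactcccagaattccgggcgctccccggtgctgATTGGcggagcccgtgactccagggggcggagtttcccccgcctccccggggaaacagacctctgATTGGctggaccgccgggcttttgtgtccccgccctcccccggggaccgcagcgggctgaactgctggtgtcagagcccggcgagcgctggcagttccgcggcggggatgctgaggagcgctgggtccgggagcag
DDIT4, chr10:72273674-72273973, plus strand: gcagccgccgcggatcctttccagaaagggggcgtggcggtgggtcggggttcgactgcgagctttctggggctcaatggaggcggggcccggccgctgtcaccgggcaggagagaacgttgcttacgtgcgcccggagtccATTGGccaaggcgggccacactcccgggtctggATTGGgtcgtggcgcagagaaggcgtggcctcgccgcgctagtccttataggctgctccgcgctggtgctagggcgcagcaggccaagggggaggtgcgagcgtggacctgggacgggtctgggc

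CHAC1 held TGATGNAA, read on the minus strand as TTGCATCA at bases 42 to 49 of the window. Of all 35116 windows in the RefSeq table, 3.62% held this motif. The SESN2, DDIT4, PPP1R15A and STC2 windows did not hold these letters, which says nothing about elements elsewhere or about binding. PPP1R15A held TGACGTCA at bases 193 to 200, a motif found in 1.85% of all windows. CCAAT occurred in 4 of the 5 windows, all but that of PPP1R15A, and in 34.6% of all windows. Because CCAAT was added after these windows had been read, these shares are no test of enrichment. CHAC1 had 3 copies of CCAAT, SESN2 and DDIT4 had 2 each and STC2 had 1. These matches describe the sequence and are not shown to be sites in these cells.

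**Figure D1:**
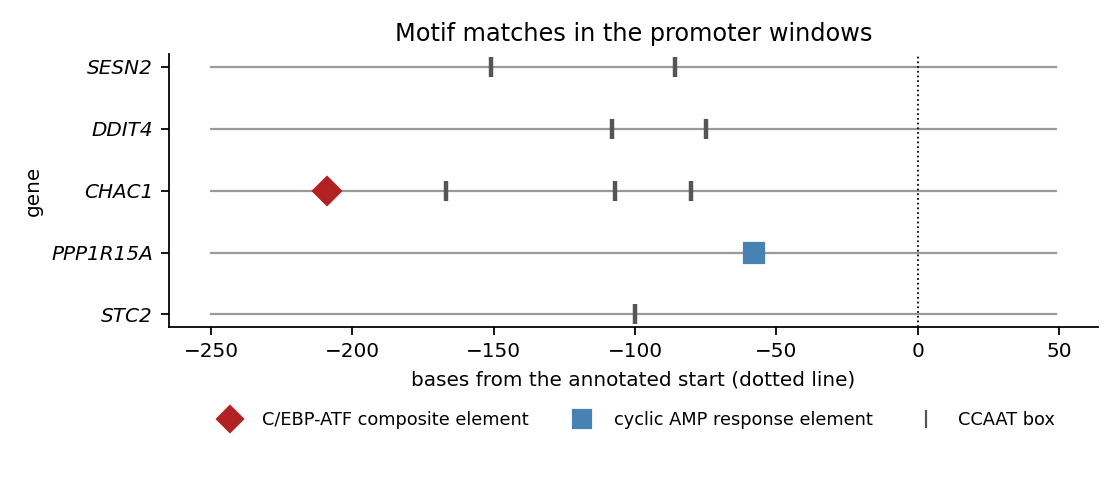
Each line is the promoter window of 1 gene, from 250 bases before to 50 after the annotated start on the horizontal axis (bases), and each symbol is a motif match placed at its first base. CHAC1 carries the composite element and 3 CCAAT boxes, and PPP1R15A carries the cyclic AMP response element and no CCAAT box.

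Total counts ranged from 4670881 to 7967215 in the RNA libraries and from 2063952 to 4364383 in the footprint libraries. Levels below are CPM, counts scaled to the library total. Fold changes are starved over fed from edgeR's quasi-likelihood test with TMM scaling, fitted over all transcripts, and a transcript is called when its Benjamini-Hochberg adjusted p is under 0.05. Each change is therefore relative to the rest of its own assay. Levels of different genes are not compared, since the counted length of each transcript is not known here.

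In starved cells RNA of SESN2, DDIT4, CHAC1, PPP1R15A and GADD45A was called higher, by between 3.68-fold and 41.4-fold, and footprints on the same 5 genes were called higher by between 2.78-fold and 19.9-fold. STC2 had no RNA counts, and its footprint change did not pass the test. Of all transcripts tested, 33.8% were called higher in RNA (3911 of 11572) and 18.9% in footprints (2547 of 13457). In RNA, CHAC1 reached the minimum count for testing only through its starved libraries, and in footprints so did CHAC1, STC2 and DDIT4. For DDIT4 footprints 2 fed libraries reached it, where 3 libraries were needed. So the number of members that could be tested is not independent of the direction. The median log2 fold change was 3.28 over the 5 members tested in RNA, beside −0.01 over all transcripts, and 2.91 over the 6 tested in footprints, beside 0.05 over all. More than 8-fold rises were called for CHAC1, PPP1R15A and GADD45A in both assays, where 0.415% of all transcripts passed that limit in RNA and 0.208% in footprints. In each of the 5 genes that rose, every starved library was above every fed library in both assays. Of all tested transcripts, 28.6% met this in RNA and 26.6% in footprints. Since the members were chosen with earlier results of these data known, these comparisons describe the set and do not test it.

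**Figure D2:**
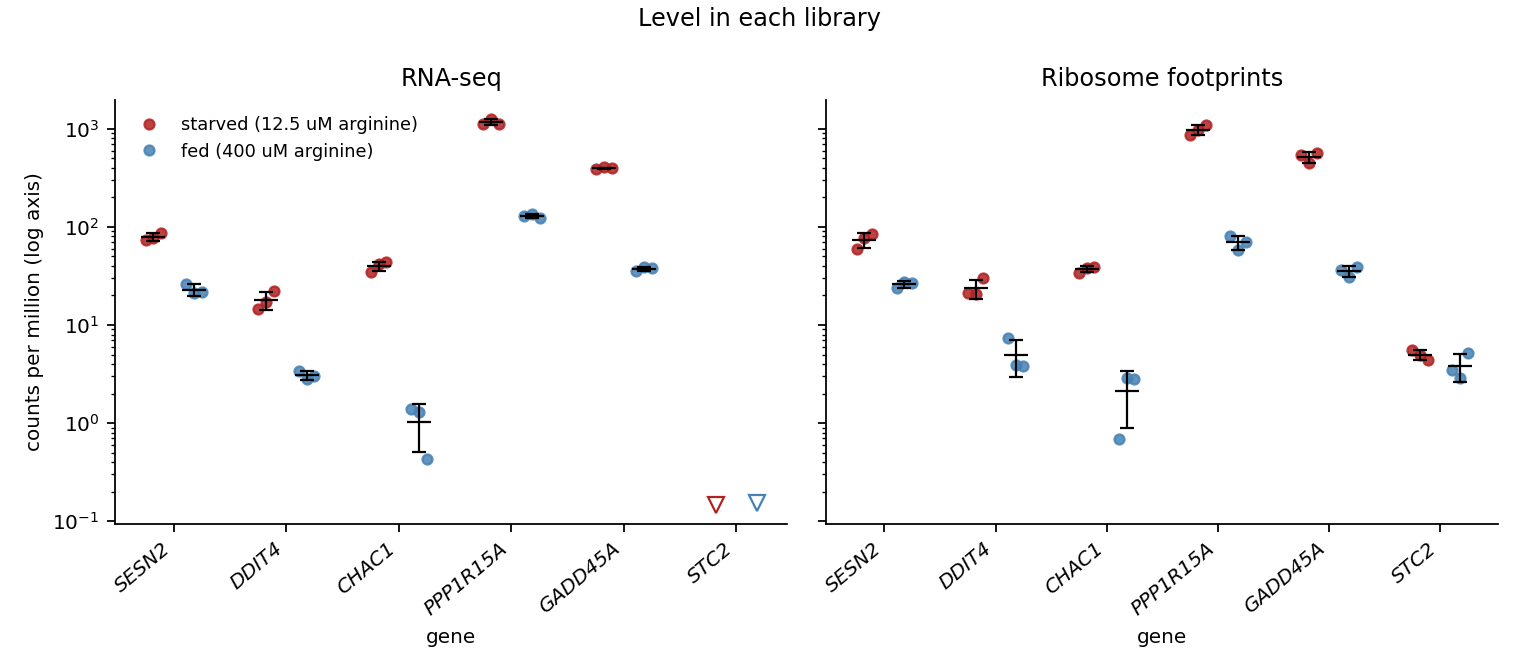
Points are single libraries in CPM on a log axis, RNA on the left and footprints on the right, with starved libraries left of fed ones; bars are mean and SD (n = 3). Starved libraries lie above fed libraries for SESN2, DDIT4, CHAC1, PPP1R15A and GADD45A in both panels; open triangles mark the limit for STC2, whose RNA count was 0 (3 counts over the group).

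SESN2 and DDIT4 both restrain mTORC1, SESN2 by way of the GATOR complexes that report amino acids to mTORC1 and DDIT4 (also called REDD1) by way of the TSC complex. SESN2 RNA was 72.9, 77.9 and 87.2 CPM in starved libraries, against 26.5, 21.0 and 21.5 CPM in fed libraries. The lowest starved library was 2.75 times the highest fed library. The fitted log2 fold change was 1.88 (SE 0.10, adjusted p = 1.91e-26, edgeR), a 3.68-fold rise with a 95% interval from 3.20 to 4.24. Only 153 of 11572 tested transcripts (1.32%) had a larger log2 fold change in RNA. SESN2 footprints were 59.5, 77.8 and 84.5 CPM in starved libraries, against 23.8, 27.6 and 26.9 CPM in fed libraries. Starved replicate 1 was the lowest of its group and still 2.15 times the highest fed library. The footprint log2 fold change was 1.47 (SE 0.17, adjusted p = 3.20e-05, edgeR), a 2.78-fold rise with an interval from 2.16 to 3.57.

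DDIT4 had few counts in fed cells, 61 in RNA and 48 in footprints over the 3 libraries. Its RNA was 14.5, 17.3 and 22.0 CPM in starved libraries, against 3.39, 2.78 and 3.03 CPM in fed libraries. Coefficients of variation were 21.2% in starved and 9.94% in fed libraries, and the groups did not overlap. The fed values rest on 27, 13 and 21 counts, too few to tell whether the spreads differ. The log2 fold change was 2.63 (SE 0.22, adjusted p = 3.76e-19, edgeR), a 6.18-fold rise with an interval from 4.54 to 8.41. DDIT4 footprints were 21.0, 20.5 and 29.8 CPM in starved libraries, against 7.33, 3.88 and 3.78 CPM in fed libraries. Fed replicate 1 held 32 counts and the other fed libraries 8 each, but its library total was also larger (4364383, against 2063952 and 2118467). Its exact Clopper-Pearson interval ran from 5.02 to 10.4 CPM. It overlapped those of the other fed libraries, from 1.67 to 7.64 and from 1.63 to 7.44 CPM. Such intervals cover counting error only, and whether replicate 1 differs from the other fed libraries was not tested. The footprint log2 fold change was 2.09 (SE 0.29, adjusted p = 8.21e-05, edgeR), a 4.25-fold rise with an interval from 2.75 to 6.56.

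CHAC1, an enzyme that breaks down glutathione in the cytosol, had the steepest fitted rise among the members in RNA. Its RNA was 35.0, 41.5 and 43.4 CPM in starved libraries, against 1.38, 1.28 and 0.432 CPM in fed libraries. The fed values rest on 11, 6 and 3 counts, and their exact 95% Clopper-Pearson intervals ran from 0.689 to 2.47, from 0.471 to 2.80 and from 0.0892 to 1.26 CPM. These intervals cover counting error only. The fitted log2 fold change was 5.37 (SE 0.34, adjusted p = 3.19e-33, edgeR), a 41.4-fold rise with an interval from 25.8 to 66.5. A larger RNA log2 fold change was fitted for 8 of the 11572 transcripts tested.

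CHAC1 footprints were 34.2, 38.5 and 39.4 CPM in starved libraries, against 0.687, 2.91 and 2.83 CPM in fed libraries. Every starved library held at least 80 footprint counts, whereas the fed libraries held 3, 6 and 6. The footprint log2 fold change was 4.31 (SE 0.42, adjusted p = 1.17e-06, edgeR), a 19.9-fold rise with an interval from 10.6 to 37.3. Without fed footprint replicate 1, the library with 3 counts, it was 3.62 (adjusted p = 2.65e-06, edgeR), so the size of the rise depends on that library while the call does not. A larger footprint log2 fold change was fitted for 7 of 13457 transcripts.

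PPP1R15A (also called GADD34) directs protein phosphatase 1 to eIF2alpha and so closes the feedback loop on translation. Its RNA was 1118, 1259 and 1125 CPM in starved libraries, against 130.2, 135.9 and 123.5 CPM in fed libraries. Replicates lay close together, with coefficients of variation of 6.81% in starved and 4.78% in fed libraries. The log2 fold change was 3.28 (SE 0.08, adjusted p = 4.41e-44, edgeR), a 9.73-fold rise with an interval from 8.75 to 10.8. PPP1R15A footprints were 868, 962 and 1086 CPM in starved libraries, against 80.9, 58.1 and 70.8 CPM in fed libraries. The lowest starved library was 10.7 times the highest fed library. The footprint log2 fold change was 3.74 (SE 0.14, adjusted p = 1.88e-08, edgeR), a 13.4-fold rise with an interval from 10.9 to 16.4, and 14 transcripts had a larger one.

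GADD45A is a stress-induced protein linked to growth arrest and DNA repair, and a target of p53 as well as of ATF4. Its RNA was 392, 404 and 395 CPM in starved libraries, against 35.4, 39.0 and 37.9 CPM in fed libraries. Starved replicates differed little, with a coefficient of variation of 1.48%. The log2 fold change was 3.52 (SE 0.08, adjusted p = 6.83e-46, edgeR), an 11.5-fold rise with an interval from 10.3 to 12.9. GADD45A footprints were 536, 445 and 565 CPM in starved libraries, against 36.4, 30.5 and 39.2 CPM in fed libraries. The footprint log2 fold change was 3.81 (SE 0.14, adjusted p = 1.88e-08, edgeR), a 14.0-fold rise with an interval from 11.4 to 17.3.

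STC2, a secreted glycoprotein and a known target of ATF4 in other cells, was the exception. Its transcript had 0 counts in all 3 starved and all 3 fed RNA libraries. Counting error alone allows up to 0.148 CPM in starved and 0.153 CPM in fed libraries (3 counts over the group). This limit covers only reads assigned to this transcript and is no bound on STC2 RNA in the cells. STC2 was 1 of 4632 transcripts at 0 in the RNA table, and 801 of these had at least its 75 footprint counts. STC2 footprints were 5.56, 4.95 and 4.37 CPM in starved libraries, against 3.44, 2.91 and 5.19 CPM in fed libraries. The groups overlapped, since fed replicate 3 lay above starved replicates 2 and 3. The footprint log2 fold change of 0.33 did not pass the test (SE 0.34, adjusted p = 0.447, edgeR), and its interval, from −0.40 to 1.06, spans ratios from 0.758 to 2.09. With no RNA count its efficiency could not be fitted. Why footprints came with no RNA count was not tested, and reads of STC2 assigned to another transcript would not be seen here.

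**Figure D3:**
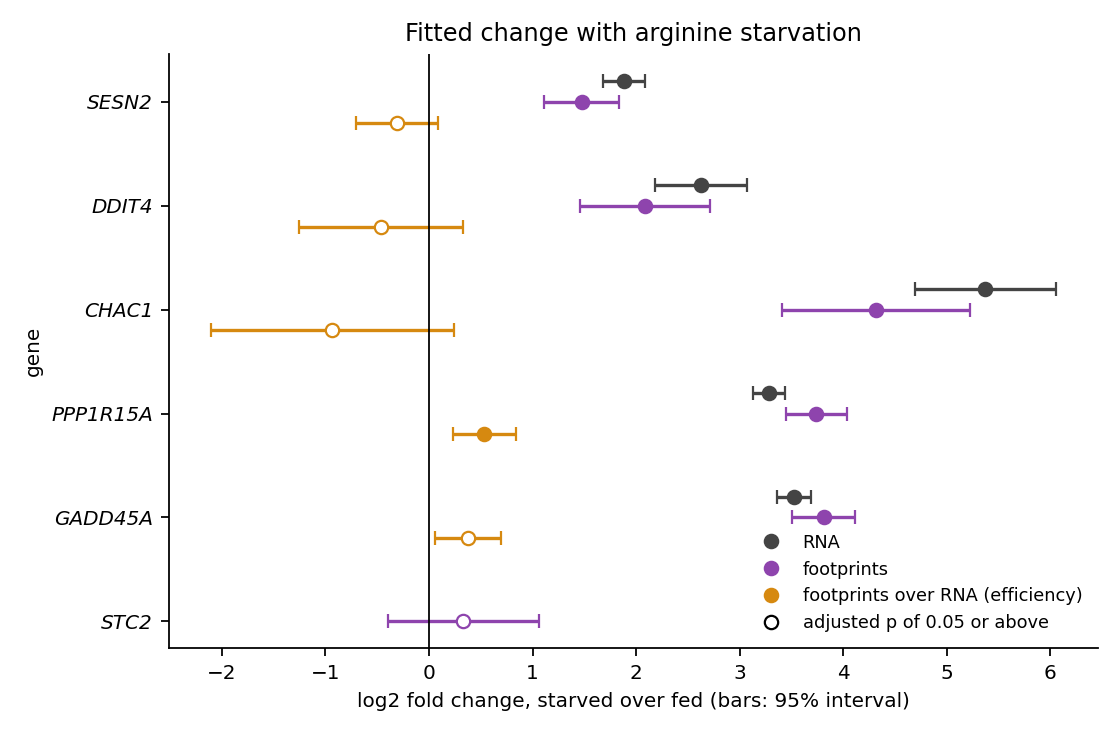
Fitted log2 fold change (starved over fed, horizontal axis) of each gene in RNA, in footprints and in their ratio, with 95% intervals; open circles have an adjusted p of 0.05 or above. RNA and footprints lie right of 0 for SESN2, DDIT4, CHAC1, PPP1R15A and GADD45A, while among the ratios only that of PPP1R15A is filled.

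The size of the RNA rise placed CHAC1 first, then GADD45A, PPP1R15A, DDIT4 and SESN2. The 95% interval of CHAC1 lay above all others. The intervals of GADD45A and PPP1R15A overlapped, from 10.3 to 12.9 and from 8.75 to 10.8, which by itself does not settle whether they differ. DDIT4, with an upper bound of 8.41, lay below PPP1R15A and above SESN2. In footprints the intervals of CHAC1, GADD45A and PPP1R15A overlapped one another, as did those of DDIT4 and SESN2, but the first 3 lay above those of DDIT4 and SESN2. The differences between genes were not tested.

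Summed over the 6 genes, RNA came to 1702 ± 87.1 CPM in starved and 194 ± 7.10 CPM in fed libraries (SD, n = 3 each). Footprints came to 1628 ± 158 CPM in starved and 142 ± 14.4 CPM in fed libraries (SD, n = 3 each). PPP1R15A alone gave on average 68.6% of the RNA sum in starved and 66.8% in fed libraries. Of the footprint sum it gave 59.7% in starved and 48.9% in fed libraries. The sums therefore weigh this gene heavily and do not describe the 6 genes evenly. These sums are of counts and are not corrected for transcript length.

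**Figure D4:**
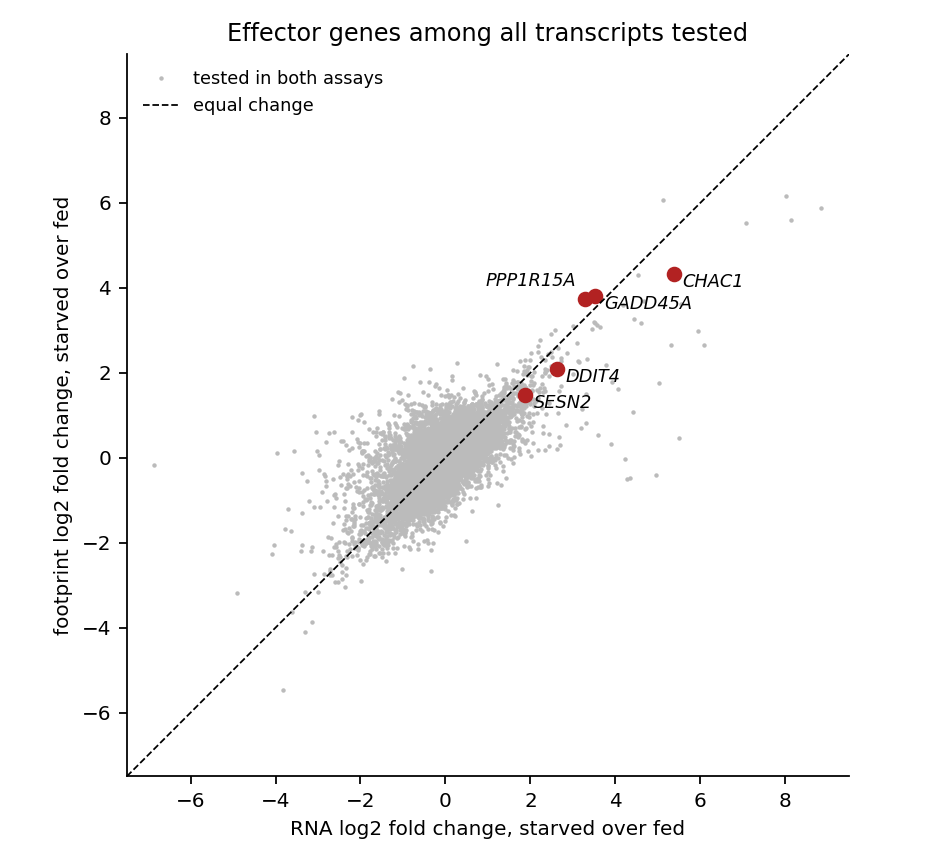
Each grey point is a transcript tested in both assays, with its RNA log2 fold change on the horizontal and its footprint log2 fold change on the vertical axis (starved over fed); the dashed line marks equal change. PPP1R15A and GADD45A lie above the line, while SESN2, DDIT4 and CHAC1 lie below it.

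Translational efficiency, the footprints on a transcript relative to its RNA, was tested in all 12 libraries together, as the difference between the footprint and the RNA change. It was called higher in starved cells for PPP1R15A and did not pass the test for SESN2, DDIT4, CHAC1 or GADD45A; 11.1% of all 11027 transcripts tested were called higher and 11.7% lower. Beside that background, a single call among the 5 members tested is not a result about the set. Each assay was scaled within itself, so a change of efficiency is relative to that of other transcripts, and protein was not measured. The division of calls over all transcripts, 1227 higher and 1292 lower, was 1567 and 803 with library totals in place of TMM factors, and 1005 and 1740 with TMM factors from each assay's own transcripts. The median log2 change of efficiency was −0.31 over the 5 members tested and −0.02 over all transcripts.

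Ratios of footprint to RNA CPM were taken over all 9 combinations of a footprint and an RNA library of the same group. Whether same-numbered libraries are paired is not known. The 9 values share libraries and are not independent. PPP1R15A had ratios from 0.690 to 0.972 with a median of 0.855 in starved cells, against 0.428 to 0.655 with a median of 0.544 in fed cells. The groups did not overlap in any combination, as was also the case, with starved above fed, for 13.5% of the 11027 transcripts. The log2 change of its efficiency was 0.54 (SE 0.15, adjusted p = 0.0119, edgeR), a 1.45-fold rise with an interval from 1.17 to 1.79. With no filter on low counts the same change was 0.43 and missed the threshold (adjusted p = 0.0572, edgeR), while over the other alternatives, each left-out library included, the adjusted p ranged up to 0.0475. Larger changes of efficiency were fitted for 1739 of 11027 transcripts (15.8%), so the rise of PPP1R15A was not extreme among all transcripts in size.

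GADD45A had ratios from 1.10 to 1.44 with a median of 1.36 in starved cells, against 0.783 to 1.11 with a median of 0.961 in fed cells. The groups overlapped at their ends. The log2 change of 0.38 (SE 0.15, adjusted p = 0.0845, edgeR) did not pass, and its interval ran from 0.06 to 0.70 before adjustment. It passed with library totals (0.47, adjusted p = 0.0381, edgeR), with the abundance trend removed (0.57, adjusted p = 0.0162, edgeR) and without starved footprint replicate 2 (0.48, adjusted p = 0.0163, edgeR).

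For SESN2, DDIT4 and CHAC1 the fitted efficiency lay on the other side of 0 without passing the test. SESN2 had ratios from 0.682 to 1.16 with a median of 0.969 in starved cells, against 0.900 to 1.32 with a median of 1.14 in fed cells, and a log2 change of −0.31 (interval −0.70 to 0.09, adjusted p = 0.255, edgeR). DDIT4 had ratios from 0.933 to 2.06 in starved cells, against 1.11 to 2.63 in fed cells, with a median of 1.36 in each. Its log2 change was −0.46 (interval −1.25 to 0.32, adjusted p = 0.398, edgeR), and without fed footprint replicate 1 it was 0.046 (adjusted p = 0.964, edgeR). CHAC1 had ratios from 0.789 to 1.13 with a median of 0.928 in starved cells, against 0.498 to 6.72 with a median of 2.11 in fed cells. The fed ratios of CHAC1 come from 3 to 11 counts per library and span more than 10-fold, so they are poorly measured. Its log2 change was −0.93 (interval −2.11 to 0.24, adjusted p = 0.246, edgeR), and it was −1.64 and passed without fed footprint replicate 1 (adjusted p = 0.0442, edgeR).

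**Figure D5:**
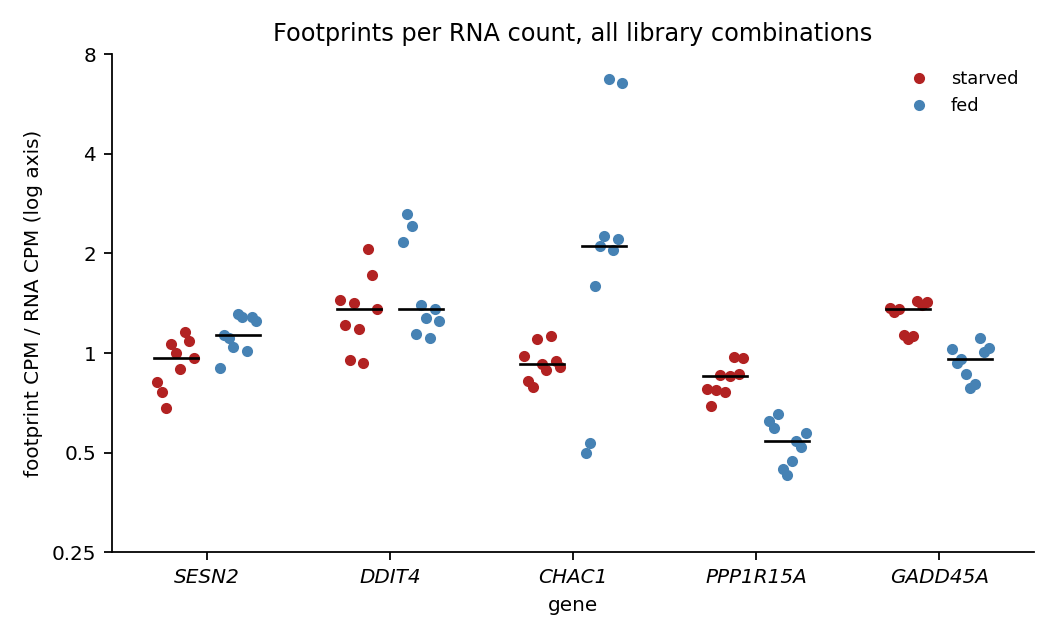
Footprint CPM divided by RNA CPM on a log axis, for all 9 combinations of a footprint and an RNA library of a group (3 libraries per assay), with starved left of fed and a line at the median. For PPP1R15A the starved ratios, from 0.690 to 0.972, lie above the fed ratios, from 0.428 to 0.655, and the fed ratios of CHAC1 spread from 0.498 to 6.72.

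Transcripts whose pair of changes was closest to the median of the 5 members tested in both assays (STC2 left out), at log2 fold changes of 3.28 in RNA and 3.74 in footprints, were sought among 7144 transcripts whose mean log2 CPM reached 4 in RNA and in footprints. The measure was the straight-line distance between the pairs, each estimated from 3 starved and 3 fed libraries per assay, and since PPP1R15A has both median values it is the likeness to PPP1R15A that was ranked. The nearest was ENST00000379270, at a distance of 0.13. It had 168 ± 4.25 CPM of RNA in starved and 17.2 ± 1.24 CPM in fed libraries, and 167 ± 6.41 CPM of footprints in starved and 11.7 ± 0.991 CPM in fed libraries (SD, n = 3 each). The next was ENST00000370938, at a distance of 0.59, with log2 fold changes of 3.50 in RNA and 3.19 in footprints. GADD45A lay at 0.25 by the same measure, and DDIT4, CHAC1 and SESN2 at 1.78, 2.17 and 2.66.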

How the data were processed

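RNA and ribosome footprint libraries of starved and fed RKO cells were compared, 3 per group and assay. Each table deposited by the authors holds raw counts for 1 assay by Ensembl transcript, as whole numbers. The submitters' processing notes name STAR, cutadapt, DESeq2 and UMI-tools and the assembly GRCh38.p13; which step used each, the counter and the counted region are not given in the sources used. Reads shared by isoforms could move counts between transcripts. Gene names of the 6 transcripts come from the list that defined the set, since the tables pair identifiers with no names; other genes of the ATF4 pathway, paralogs and markers of the cell line were therefore not tested. The nearest transcripts are named by identifier, by the rule given with them. Members and lists were chosen with earlier results of these data known.

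Transcripts were kept by filterByExpr of edgeR 4.0.16 (R 4.3.3) and tested by quasi-likelihood F tests, two-sided, with TMM factors. RNA and footprints had a fit each, with treatment as its term. Efficiency was the assay by treatment interaction over 12 libraries, with TMM factors within each assay over the transcripts kept in both. Standard errors come from the information matrix times the moderated variance, not under the Poisson error, and 95% intervals from the t distribution; they are not adjusted for multiple tests. RNA libraries had a biological coefficient of variation of 5.75%, footprint libraries 13.7%. Replicates of a group differed by more than sampling noise (chi-square per degree of freedom of at least 2.07). Alternatives were other scalings, no filter, the Wald test of DESeq2 1.42.0, limma-voom 3.58.1 for efficiency, removal of the abundance trend, a replicate block and leaving out each replicate. TMM factors from each assay's own transcripts were added after the data were seen.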

Additional observations from a re-analysis of the deposited data

Results flagged for a closer look

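For PPP1R15A the same contrast gave different changes in the 2 assays: the log2 fold change was 3.74 in footprints and 3.28 in RNA. These come from a fit of each assay by itself. The interaction was 0.54 (adjusted p = 0.0119, edgeR). It comes from the joint fit, with TMM factors over the transcripts kept in both assays, and is not the plain difference of the 2 values. With TMM factors from each assay's own transcripts the interaction was 0.45 (adjusted p = 0.0357, edgeR). The footprint to RNA ratio ran from 0.690 to 0.972 in starved and from 0.428 to 0.655 in fed cells over all combinations of libraries. With no filter on low counts the interaction was 0.43 (adjusted p = 0.0572, edgeR).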

How the results depend on the processing

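The calls of SESN2, DDIT4, CHAC1, PPP1R15A and GADD45A in RNA and in footprints held under every alternative run in each assay, and so did the absence of a call for STC2 footprints. Library totals moved the median RNA log2 fold change of all transcripts to −0.12. For efficiency, 1 member was called higher; there were 2 with library totals and 2 with the abundance trend removed (PPP1R15A and GADD45A in both), and 0 without the filter. Leaving out 1 library at a time gave 1 to 2 members higher and 0 to 1 lower, and the efficiency change of DDIT4 ranged from −0.66 to 0.046. The cause was not tested. Over all transcripts, efficiency calls lower in starved cells were 803 with library totals in place of 1292. Same-numbered starved and fed libraries did not consistently deviate together (r between −0.02 and 0.23 in RNA, between −0.33 and −0.04 in footprints). Nor did same-numbered RNA and footprint libraries (r between −0.06 and 0.29 in starved, between −0.08 and 0.04 in fed cells). These values cannot settle whether same-numbered libraries share a culture, which the labels leave unsaid. With the replicate number as a block, 5 members were called higher in RNA and 5 in footprints. For efficiency the block was the replicate number within each treatment, shared by RNA and footprint libraries, and 1 member was called higher. In each of these fits 0 were called lower. The starved RNA level of GADD45A was 413 CPM with TMM factors, in place of 397 CPM. Fed counts of 20 for CHAC1 RNA, 15 for its footprints and 48 for DDIT4 footprints limit what can be said of their efficiency.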
